A study of Mus musculus with 16 samples.

Results

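Membrane mucins and the enzymes that build mucin O-glycans were followed as 10 genes, chosen by symbol: *Muc1*, *Muc4*, *Muc13*, *Galnt3*, *Galnt12*, *C1galt1*, *C1galt1c1*, *B3gnt6*, *Gcnt3* and *Fut2*. All 10 were found among the 22396 gene symbols of both deposited tables. The choice went by name and used no measured value, but earlier results of these data were known when it was made. RNA came from EpCAM+ (epithelial) cells sorted from the distal colon of 16 mice aged 8 weeks, with 1 library per mouse. Controls were Tnfr2-f/f, and the other mice, called knockout-labelled here, were Vil1::Cre;Tnfr2-f/f, so both genotypes carry floxed alleles of *Tnfrsf1b*, the gene of TNF receptor 2. The villin promoter limits Cre to intestinal epithelial cells, where it removes a single exon. Water was given to 4 controls and 5 knockout-labelled mice. Dextran sulfate sodium (DSS), which injures the colonic epithelium, was given at 3% for 6 days to 3 controls and 4 knockout-labelled mice, and per the labels every mouse was dissected 12 days after the start of treatment. The study's text gives a slightly higher concentration and takes its uninjured mice at the start. After DSS the cells came from injured regions of the distal colon.

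Membrane mucins are large proteins that cross the apical membrane of colonocytes and carry dense O-linked sugars, forming the glycocalyx beneath the secreted mucus. Synthesis of these sugars starts when a polypeptide GalNAc transferase attaches N-acetylgalactosamine to a serine or threonine. Core enzymes then extend it, and branching, sialylating and fucosylating enzymes finish the chain. In the colon this glycan coat feeds and holds off microbes, and its thinning is a known feature of colitis.

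Values were transcript abundances (TPM, scaled to the sum of all transcripts), which correct for transcript length and so allow levels of different genes to be compared. Only transcripts annotated as principal isoforms are listed, and TPM were summed over the listed transcripts of a gene. The tables of DSS-treated and water-treated mice had been scaled separately. Levels set across them below were rescaled over all 16 mice by median-of-ratios factors (rescaled TPM), and no test was run between treatments. Differences between treatments were described by whether the mice of the groups overlapped, beside the same share over the 11207 genes averaging 1 rescaled TPM or more. Genotypes were tested within a treatment by limma on log2(TPM + 1), with Benjamini-Hochberg adjustment over all genes tested and calls at an adjusted p under 0.05.

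The libraries differed in more than the groups. *Tnfrsf1b* did not pass the threshold between genotypes in either treatment (knockout-labelled minus control 0.14 on the log2 scale, SE 0.27, limma adjusted p = 1.00 after DSS, and −0.23, SE 0.16, limma adjusted p = 0.865 in water), and its TPM do not show whether the floxed exon was read. The study itself reported less TNF receptor 2 protein on EpCAM+ cells of this knockout genotype by flow cytometry, with a similar result by RT-qPCR. The 14 leukocyte markers summed to 1642 to 16310 rescaled TPM in water-treated mice and to 20.1 to 421 after DSS, and 12 goblet cell markers summed to 6020 to 9630 in water-treated mice. After DSS the goblet markers summed to 2381 to 3705 in 6 mice but to 8487 in DSS control replicate 3, which stood apart. The 12 epithelial markers summed to 7599 to 10382 in water and 6086 to 9211 after DSS. The 10 markers of squamous epithelium summed to at most 96.4 rescaled TPM, most of it *Ly6d* in water (mean 58.7, and 5.23 after DSS). The squamous keratins were all low. *Krt5* was listed at 0 in water and at 1.91 after DSS without overlap. Means were also higher after DSS for *Krt14* (0.42 in water and 3.47 after DSS), *Krt13* (0.45 and 2.60) and *Krt6a* (0.51 and 2.49). In controls *Krt4* had means of 0.13 in water and 0.19 after DSS, with overlap. *Krtdap*, which is not a keratin, was at 0 in every mouse. The 10 surface colonocyte markers summed to 2012 to 3105 rescaled TPM in water and 884 to 1636 after DSS, without overlap. The 11 stromal markers summed to 266 to 899 in water and 105 to 478 after DSS. In such sorted bulk samples, fewer cells of a type and less RNA per cell cannot be told apart. All 7 DSS-treated mice were female and lived in cages c (2 mice) and d (5 mice). In water, the 4 males shared cage a and the 5 females cage b, so treatment and cage cannot be told apart.

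*Muc4* and *Muc13* lie on chromosome 16, and a listed transcript of each was at or near 0 in most water-treated mice and present in most DSS-treated mice. The 250 bases before the start of that transcript are shown for both because these are the members whose start in the RefSeq promoter table (GRCm38.p6) is also the annotated start of the listed transcript, outside any other exon. Of the 10 members, 5 had an entry in that table. *Muc4* is read from chr16:32735636-32735885 and *Muc13* from chr16:33793787-33794036, both on the plus strand. Capitals mark matches, on either strand, to 5 motifs that were searched: the TATA box TATAAA, the intestinal factor CDX2 (TTTATNG), AP-1 (TGANTCA), STAT (TTCNNNGAA) and HNF4 (CAAAGTNCA).
Muc4: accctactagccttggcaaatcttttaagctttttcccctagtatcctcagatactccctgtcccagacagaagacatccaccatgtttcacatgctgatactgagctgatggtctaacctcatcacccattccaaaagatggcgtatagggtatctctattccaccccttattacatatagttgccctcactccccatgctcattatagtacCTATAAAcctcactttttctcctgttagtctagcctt
Muc13: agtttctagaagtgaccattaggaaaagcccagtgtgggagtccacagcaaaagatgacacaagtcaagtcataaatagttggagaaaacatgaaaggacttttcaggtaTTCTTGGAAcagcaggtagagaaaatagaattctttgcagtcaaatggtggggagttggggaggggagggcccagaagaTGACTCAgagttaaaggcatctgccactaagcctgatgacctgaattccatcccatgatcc
The *Muc4* window held a TATA box 36 to 31 bases before the start, which overlaps a CDX2 match on the opposite strand (37 to 31 bases before). The *Muc13* window held a STAT match 140 to 132 bases and an AP-1 match 61 to 55 bases before the start. Among 32851 promoter windows of the same length, 12.4% held the TATA box letters, 9.81% the CDX2, 6.75% the AP-1, 7.02% the STAT and 1.19% the HNF4 letters. A match describes the letters of the window and not a bound site.

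*Muc13*, the most abundant of the 3 membrane mucins, was by far the highest member in every mouse. It is a transmembrane mucin with epidermal growth factor-like domains that lines the colonic surface. In water-treated controls it had 541, 596, 675 and 549 TPM, and in water-treated knockout-labelled mice 727, 677, 667, 537 and 615 TPM. After DSS the controls had 679, 694 and 1073 TPM and the knockout-labelled mice 965, 656, 703 and 821 TPM. Its lowest value in a group exceeded the highest value of the next member, *Fut2*, in all 4 groups, and its level placed it between the 98.5th and 99.4th percentile of genes in its own library. After rescaling, the difference between DSS and water (log2 of rescaled TPM + 1) was 0.08 ± 0.23 (SD between mice, n = 3 and 4) in controls and −0.08 ± 0.20 (n = 4 and 5) in knockout-labelled mice, and the groups overlapped in both. In controls this difference ranged from −0.09 to 0.19 when single mice were omitted. By percentile rank *Muc13* was higher after DSS without overlap within each genotype. Ranks were 98.64 to 99.23 in water and 99.24 to 99.39 after DSS in controls. In knockout-labelled mice they were 98.5 to 98.9 and 99.2 to 99.4. Whether its groups overlapped thus depended on the scale.

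Nearly all *Muc13* TPM came from 1 of its 2 listed transcripts (ENSMUST00000023520.6), and the other, ENSMUST00000115044.7, starts at 33794037, upstream of the first at 33794367. This second transcript had 12.0, 11.5, 13.3 and 0.0016 TPM in water-treated controls and 0.016 TPM or less in each water-treated knockout-labelled mouse. DSS-treated controls showed 60.1, 28.0 and 0.000046 TPM, and DSS-treated knockout-labelled mice 50.4, 4.78, 40.6 and 20.2 TPM. It was thus present in all DSS-treated mice but control replicate 3 and in 3 of 9 water-treated mice. It shares all but 3.68% of its 31-base windows with other annotated transcripts, so reads can move between the 2 transcripts in the estimate.

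*Muc4*, a large transmembrane mucin that binds the receptor ERBB2, was at or near 0 in water and detected in 6 of the 7 DSS-treated mice. The 4 water-treated controls were listed at 0.00296 TPM or less, and the 5 water-treated knockout-labelled mice at 0.24 TPM or less. DSS-treated controls had 14.1, 12.2 and 1.58e-08 TPM, and DSS-treated knockout-labelled mice had 4.13, 10.5, 4.10 and 4.28 TPM. The DSS mouse without the transcript was control replicate 3, the mouse with the high goblet markers and also without the second *Muc13* transcript. The treatments overlapped in controls through that mouse, and did not overlap in knockout-labelled mice. No ratio was taken against the water groups, since they were listed at or near 0. The listed transcript shares all but 0.589% of its 31-base windows with other transcripts, and 8 transcripts are annotated, so a value near 0 means that reads were not given to this isoform, and other isoforms were not listed.

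*Muc1*, a transmembrane mucin whose cytoplasmic tail signals, was low everywhere. Its TPM were 0.96, 2.57, 1.75 and 3.10 in water-treated controls, 1.92, 0.593, 1.21, 1.39 and 1.64 in water-treated knockout-labelled mice, 2.39, 2.93 and 4.93 in DSS-treated controls, and 5.63, 1.98, 1.29 and 3.98 in DSS-treated knockout-labelled mice. The treatments overlapped in both genotypes. The depth behind these values was small, since the exponential of the authors' mean log count was 36.7 reads in the DSS table and 9.53 in the water table, against 12377 and 4872 for the main transcript of *Muc13*.

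**Figure D1:**
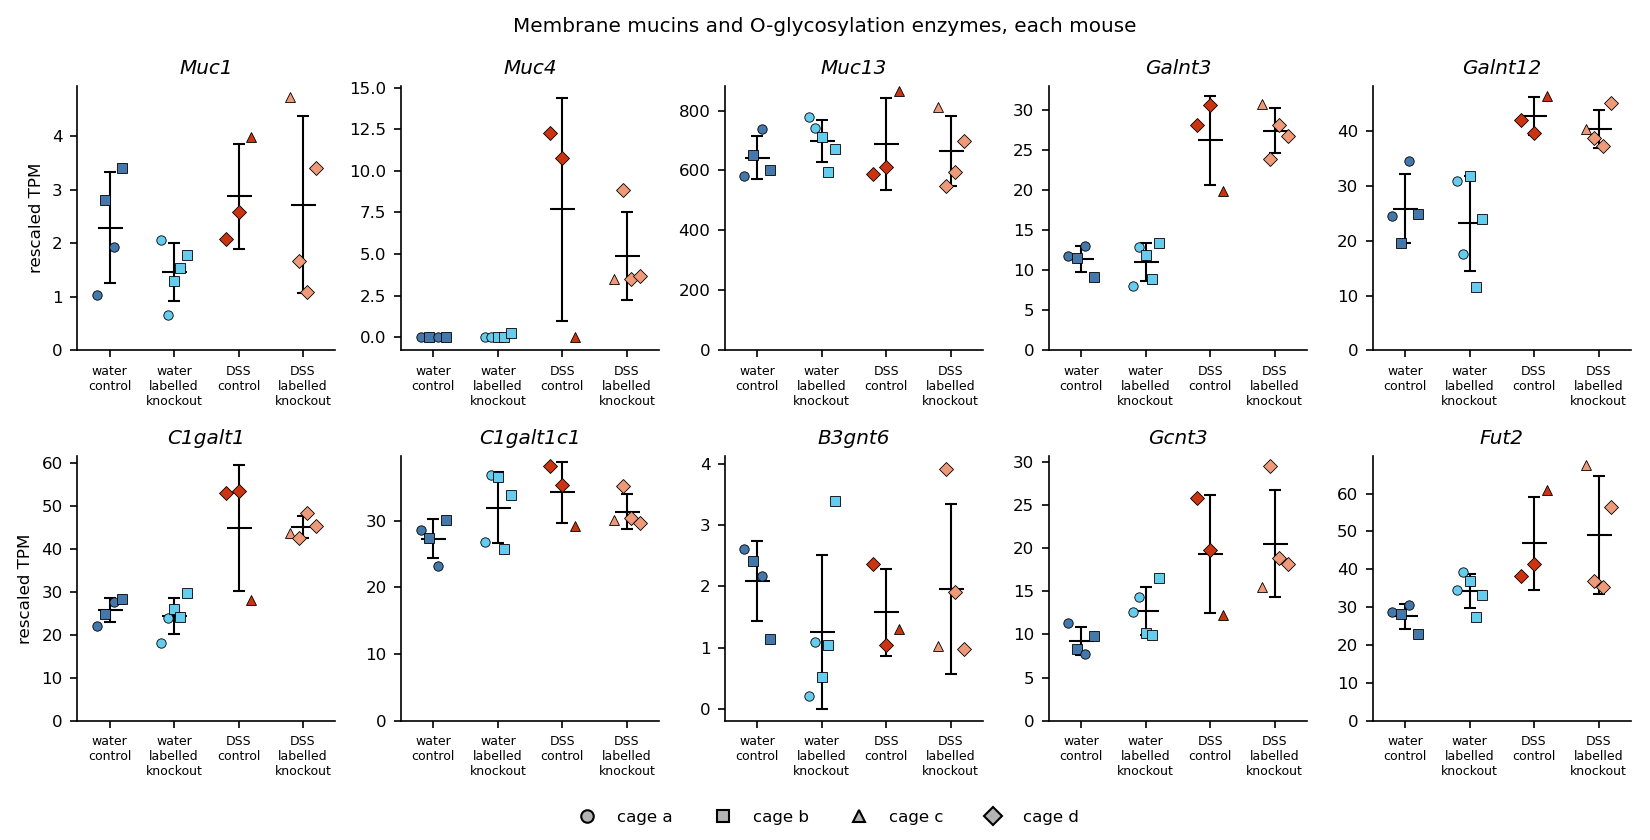
Rescaled TPM (linear axes) of the 10 members in each mouse, by group, with the group mean and SD as a bar and marker shape for the cage. *Galnt3* and *Galnt12* lie higher in all 7 DSS-treated mice than in all 9 water-treated mice, *Muc13* overlaps between treatments, and the DSS control of cage c (triangle) is at 0 for *Muc4* and low for *C1galt1*, *Gcnt3* and *Galnt3*.

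The initiating enzymes *Galnt3* and *Galnt12* were higher after DSS in both genotypes, and no DSS-treated mouse overlapped a water-treated mouse for either gene after rescaling. Both encode polypeptide GalNAc transferases of the Golgi, and the *Galnt3* enzyme is also known for glycosylating the phosphate hormone FGF23. *Galnt3* had 11.8, 11.6, 13.0 and 9.18 rescaled TPM in water-treated controls and 8.03, 12.9, 11.8, 8.95 and 13.4 in water-treated knockout-labelled mice. After DSS it had 28.2, 30.6 and 19.9 rescaled TPM in controls and 30.7, 24.0, 28.2 and 26.8 in knockout-labelled mice. The mean was 2.30 times as high after DSS in controls and 2.49 times in knockout-labelled mice, with log2 differences of 1.12 ± 0.25 (SD, n = 3 and 4) and 1.26 ± 0.25 (n = 4 and 5). Leaving out any one mouse kept these within 1.01 to 1.30 and 1.16 to 1.33.

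*Galnt12* had 24.5, 19.6, 34.6 and 24.9 rescaled TPM in water-treated controls and 30.9, 17.7, 31.9, 11.5 and 24.0 in water-treated knockout-labelled mice. It had 42.0, 39.8 and 46.6 in DSS-treated controls and 40.5, 38.8, 37.3 and 45.2 in DSS-treated knockout-labelled mice. The highest water-treated mouse, at 34.6, was close to the lowest DSS-treated mouse, at 37.3. The log2 difference was 0.73 ± 0.26 in controls and 0.86 ± 0.45 in knockout-labelled mice. Its listed transcript shares all but 10.7% of its 31-base windows with other transcripts, so part of its TPM can belong to an isoform that is not listed.

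*C1galt1*, the synthase that adds galactose to make the core 1 structure, was higher after DSS in 6 of 7 mice. It had 22.1, 24.8, 27.6 and 28.3 rescaled TPM in water-treated controls and 18.0, 23.8, 26.0, 24.1 and 29.6 in water-treated knockout-labelled mice. DSS-treated controls had 52.9, 53.5 and 28.0, and DSS-treated knockout-labelled mice 43.7, 42.5, 48.4 and 45.4. The control at 28.0, again replicate 3, lay inside the water range, and the other 6 DSS-treated mice lay above it. The log2 difference was 0.73 ± 0.35 in controls, 1.03 without that mouse, and 0.88 ± 0.20 in knockout-labelled mice.

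*C1galt1c1*, or Cosmc, is the chaperone without which the core 1 synthase misfolds. It had 23.3 to 30.1 rescaled TPM in water-treated controls and 25.7 to 36.9 in water-treated knockout-labelled mice, against 29.2 to 38.2 and 29.6 to 35.2 after DSS. Its log2 difference was 0.31 ± 0.17 in controls and −0.01 ± 0.20 in knockout-labelled mice, and the treatments overlapped in both.

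A ratio of 2 genes within a mouse does not depend on how its table was scaled. The ratio of *C1galt1* to *C1galt1c1* was 0.773, 0.907, 1.19 and 0.941 in water-treated controls and 0.672, 0.645, 0.713, 0.938 and 0.874 in water-treated knockout-labelled mice. It was 1.39, 1.51 and 0.959 in DSS-treated controls and 1.45, 1.21, 1.59 and 1.53 in DSS-treated knockout-labelled mice. Synthase transcript thus exceeded chaperone transcript in 6 of 7 mice after DSS and in 1 of 9 in water. The knockout-labelled groups did not overlap, and the controls overlapped through DSS control replicate 3. The ratio of membrane *Muc13* to *Muc2*, the gel-forming mucin secreted by goblet cells, was 3.41 to 8.47 over the water-treated mice. It was 14.0 to 43.7 in 6 DSS-treated mice and 6.71 in DSS control replicate 3.

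**Figure D2:**
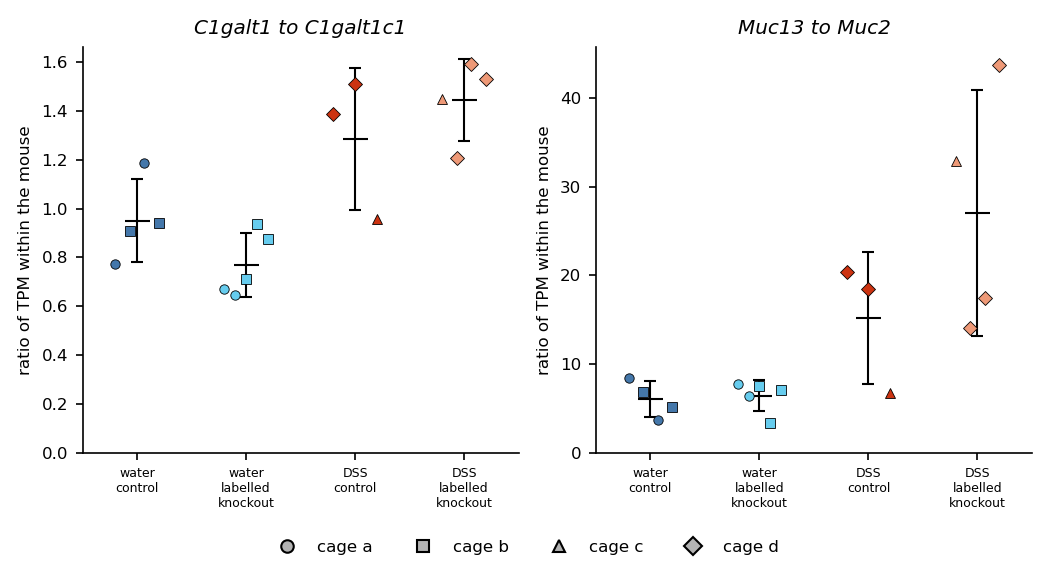
Ratio of TPM within each mouse for *C1galt1* to *C1galt1c1* (left) and *Muc13* to *Muc2* (right), linear axes from 0, with group mean and SD as a bar and marker shape for the cage. Of the 7 DSS-treated mice, 6 lie above all water-treated mice in both panels, and the cage c control (0.959 and 6.71) lies among the water-treated mice.

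*B3gnt6*, which makes the core 3 structure found mainly in colonic mucins, was the lowest or next to lowest member in every group. It had 2.44, 2.22, 1.98 and 1.04 TPM in water-treated controls, 0.201, 0.999, 0.486, 0.943 and 3.12 in water-treated knockout-labelled mice, 2.74, 1.18 and 1.62 in DSS-treated controls, and 1.21, 4.69, 2.26 and 1.14 in DSS-treated knockout-labelled mice. The groups overlapped in every comparison, and its depth was low, at 24.7 and 7.86 reads as the exponential of the authors' mean log count in the DSS and water tables. The core 1 synthase thus had more transcript than the core 3 synthase in each of the 16 mice.

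*Gcnt3*, which adds the branch of core 2 and core 4 structures, was higher after DSS in controls, with no overlap. It had 11.3, 8.33, 7.71 and 9.78 rescaled TPM in water-treated controls and 25.8, 19.8 and 12.2 in DSS-treated controls, a log2 difference of 0.93 ± 0.37 (SD, n = 4 and 3). In knockout-labelled mice it had 12.6, 14.4, 10.1, 9.93 and 16.5 in water and 15.4, 29.5, 18.8 and 18.2 after DSS, a log2 difference of 0.63 ± 0.33 with overlap between 1 mouse of each treatment.

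*Fut2*, the fucosyltransferase that completes the H antigen on gut mucins, was also higher after DSS in controls with no overlap. It had 28.6, 28.2, 30.5 and 22.9 rescaled TPM in water-treated controls and 38.4, 41.3 and 60.8 in DSS-treated controls (log2 difference 0.72 ± 0.26). In knockout-labelled mice the range was 27.4 to 39.3 in water and 35.3 to 67.6 after DSS (0.46 ± 0.33), and the groups overlapped.

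Counted over the 10 members, 4 were higher after DSS without overlap in controls (*Gcnt3*, *Galnt3*, *Galnt12*, *Fut2*), where 10.6% of all genes were, and 0 were lower, where 14.0% of all genes were. In knockout-labelled mice 4 were higher (*Muc4*, *C1galt1*, *Galnt3*, *Galnt12*), against 17.3% of all genes, and 0 were lower, against 18.0%. Over all mice, 2 members were higher (*Galnt3* and *Galnt12*), against 4.49% of all genes, and 0 were lower, against 7.04%. All 10 members passed the filter of a mean of 1 rescaled TPM, *Muc4* only through the DSS-treated mice. The median log2 difference of the members was 0.73 in controls and 0.57 in knockout-labelled mice, and that of all genes was 0.01 and −0.004. Without DSS control replicate 3, 7 members were higher in controls, where the background rose to 24.8%, and 0 were lower (26.1%). Among female mice alone, 4 members were higher in controls (background 18.2%) and 4 in knockout-labelled mice (21.6%), and 0 were lower in either (20.4% and 23.2%). With TPM as deposited the median of all genes was itself higher after DSS by 0.32 in controls and 0.30 in knockout-labelled mice. On that scale 7 members were higher without overlap in each, but the share of all genes was not counted, so these counts have no background. Leukocyte markers were lower after DSS without overlap in 8 of 11 measured genes over all mice, goblet markers in 5 of 12 and surface colonocyte markers in 2 of 10. Within genotypes, goblet markers were lower in 5 of 12 genes in controls and 11 of 12 in knockout-labelled mice. Epithelial markers were lower in 0 and higher in 1 of 12 genes in controls, and lower in 6 and higher in 3 in knockout-labelled mice. Stromal markers were lower without overlap in 6 of 11 genes in controls and 0 of 11 in knockout-labelled mice. The part of these cells, and of the squamous keratins, in the members' differences was not tested.

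**Figure D3:**
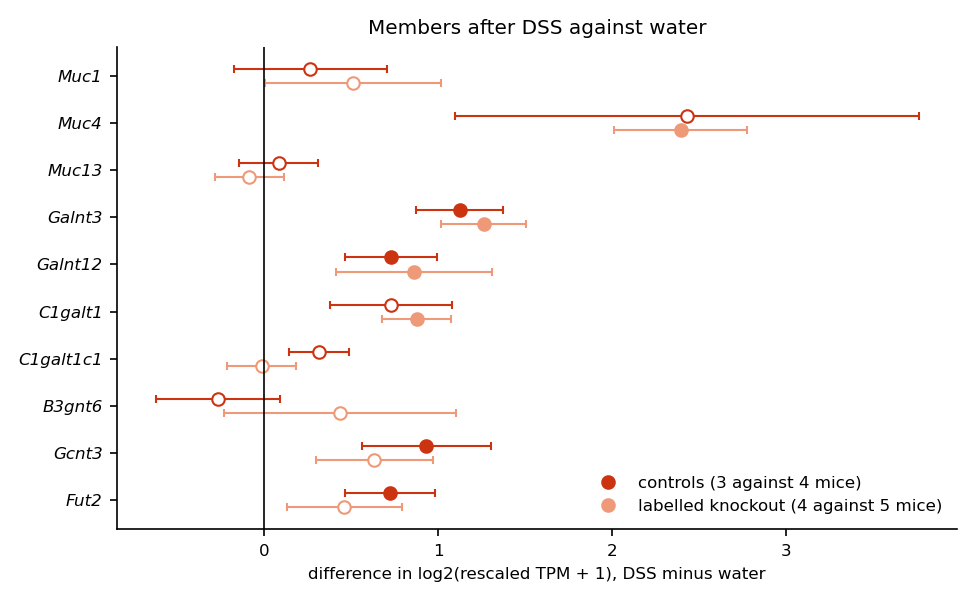
Difference in log2(rescaled TPM + 1), DSS minus water, for the 10 members in controls and in knockout-labelled mice, with the SD between mice as a bar. Filled points mark members whose groups did not overlap, and *Galnt3* and *Galnt12* are filled for both genotypes. For *Muc4* the water groups are at or near 0, so its position depends on the 1 TPM added.

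Members were ordered by TPM within each group. In water-treated controls *Fut2*, *C1galt1c1*, *Galnt12* and *C1galt1* followed *Muc13* at means of 25.3, 25.1, 23.8 and 23.6 TPM, and neighbours among these 4 overlapped. *Galnt3* (10.5) and *Gcnt3* (8.55) came next and overlapped, followed by *Muc1* (2.10) and *B3gnt6* (1.92), which overlapped too. After DSS the order of controls was *Fut2* (55.5), *C1galt1* (52.1), *Galnt12* (50.4), *C1galt1c1* (40.1), *Galnt3* (30.6) and *Gcnt3* (22.5), so that *C1galt1c1* stood below *C1galt1* and, without overlap, below *Galnt12*. Knockout-labelled mice had the same order after DSS. Percentile ranks, which do not depend on scaling between the tables, put *Galnt3* at 51.7 to 65.1 in water-treated mice and 76.6 to 84.3 after DSS, and *C1galt1* at 72.1 to 82.2 and 82.8 to 91.2. By rank 7 of 10 members were higher without overlap in controls, against 19.0% of all genes, and 6 of 10 in knockout-labelled mice, against 25.2%. Over all mice 3 were higher by rank (*C1galt1*, *Galnt3*, *Galnt12*), against 9.97%. None was lower by rank, where 10.3% of all genes were in controls, 12.9% in knockout-labelled mice and 5.33% over all mice.

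No member passed the threshold between genotypes. After DSS, limma called 0 of 10 members (0 with an unadjusted p under 0.05, against 2.65% of all genes), where it called 1 of 10899 genes (0.00918%, *Tra2a*), and their log2 fold changes lay between −0.15 and 0.14. In water it called 0 of the 9 members tested, where it called 1 of 11046 genes (0.00905%, *Dus2*), and *Muc4* was below the filter of a mean of 1 TPM. *Gcnt3* and *Fut2* had unadjusted p under 0.05 in water, where 5.28% of all genes did. *Gcnt3* had 11.7 ± 2.54 TPM (SD, n = 5) in knockout-labelled mice and 8.55 ± 1.57 (n = 4) in controls, or 0.40 more on the log2 scale (SE 0.18), with an adjusted p of 0.865 by limma and 0.0714 by two-sided exact permutation. *Fut2* had 31.6 ± 4.34 and 25.3 ± 3.05 TPM, or 0.31 more on the log2 scale (SE 0.13), with an adjusted p of 0.865 by limma and 0.0556 by exact permutation. Both were also higher in knockout-labelled mice within cage a (by 0.48 and 0.31 on the log2 scale) and within cage b (0.36 and 0.34). Of the other tested members, *Muc13* and *C1galt1c1* were higher within both cages, and *Muc1*, *B3gnt6* and *Galnt12* lower within both. *C1galt1* and *Galnt3* changed sign between the cages. The cages split the same mice, so their agreement is no separate result. Neither *Gcnt3* nor *Fut2* passed the adjustment, and the genotypes overlapped for every member in both treatments. Of all genes, 2.13% were higher and 1.55% lower without overlap in knockout-labelled mice after DSS, and 0.67% higher and 0.878% lower in water. *Tra2a* and *Dus2* are no members and were named after their values were seen. The smallest exact p that 4 mice against 5 allow is 0.00794, and 3 against 4 allow 0.0286.

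**Figure D4:**
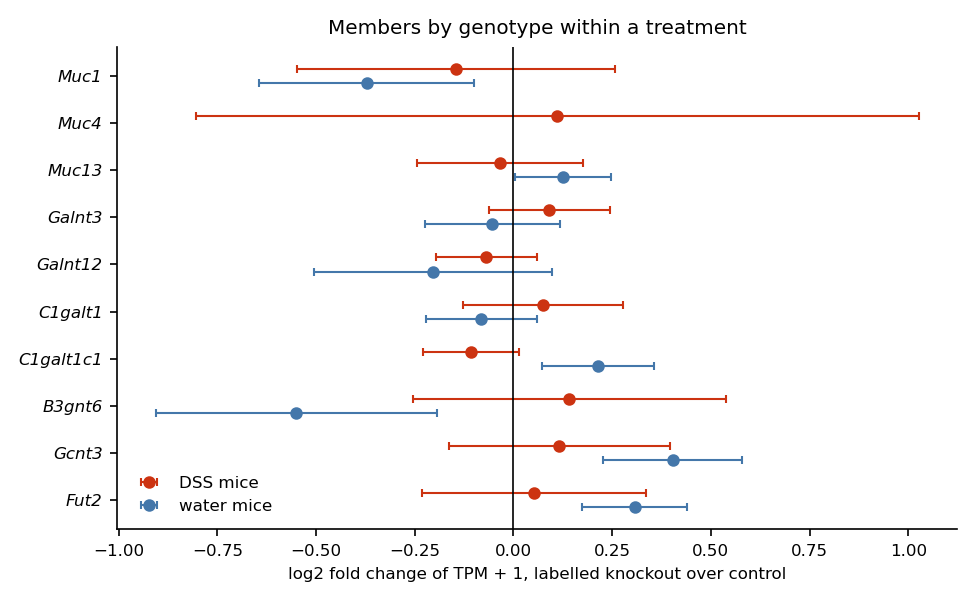
Log2 fold change of TPM + 1, knockout-labelled over control mice, for the 10 members within DSS-treated and water-treated mice, with the standard error from limma as a bar. All DSS points lie between −0.15 and 0.14, *Gcnt3* (0.40) and *Fut2* (0.31) are the highest in water, and *Muc4* was not tested in water.

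The difference between the genotype effects was fitted over all 4 groups, each effect being taken within its own table. Limma called 0 of 10 members, where it called 1 of 11247 genes (0.00889%, again *Dus2*). An unadjusted p under 0.05 was found for 0 members, and for 470 of the 11247 genes. *Muc4* entered this fit only through the DSS-treated mice, so its value there restates its genotype difference after DSS. The highest estimate was that of *B3gnt6* (0.69, standard error 0.55, adjusted p = 0.949) and the lowest that of *C1galt1c1* (−0.32, standard error 0.19, adjusted p = 0.949). After DSS, the *Muc4* fold change of 0.11 had a standard error of 0.92 and became −1.16 without DSS control replicate 3 (adjusted p = 0.770 from limma), so 1 library set its direction.

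Within the DSS-treated mice, members differed between cages c and d. *Muc1* (4.93 to 5.63 against 1.29 to 3.98 TPM), *Muc13* (965 to 1073 against 656 to 821) and *Fut2* (75.4 to 80.4 against 41.7 to 66.1) were higher in both cage c mice than in the 5 mice of cage d. That was 3 of 10 members, against 15.6% of all genes. *Gcnt3* was lower (15.2 to 18.4 against 21.3 to 35.3 TPM), 1 of 10 members against 9.94% of all genes. Cage c held 1 control and 1 knockout-labelled mouse, so these cage values do not follow the genotype. In water, cages a and b overlapped for every member, where 0.797% of all genes were higher and 0.996% lower in cage a.

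The other genes of the pathway were taken from lists, and their counts stand against the same background as those of the members. Higher without overlap were 10.6% of all genes in controls, 17.3% in knockout-labelled mice and 4.49% over all mice, and lower were 14.0%, 18.0% and 7.04%. Among 8 other GalNAc transferases with a mean of at least 1 rescaled TPM, 2 were higher after DSS without overlap in controls and 2 in knockout-labelled mice, and 0 were lower in either. *Galnt4* had a mean of 54.4 rescaled TPM in DSS-treated and 28.3 in water-treated mice, *Galnt1* 37.4 and 22.6, and *Galnt7* 45.5 and 33.8, while *Galnt2* had 1.31 and 4.22. The groups of all mice overlapped for each of these 4 genes. The median log2 difference of the list was 0.16 in controls and −0.04 in knockout-labelled mice.

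Among 14 other core and branch enzymes, 6 were higher and 1 lower in controls, and 5 were higher and 3 lower in knockout-labelled mice. Over all mice 4 were higher and 1 lower without overlap. The lower gene was *B4galt5*, a galactosyltransferase (6.98 rescaled TPM after DSS and 11.7 in water), named after its value was seen. The higher genes included *B3gnt5*, which starts lacto-series glycolipids (41.6 and 20.2), and *B3galt5*, another galactosyltransferase (119 and 60.0). *Gcnt4*, another branching enzyme among the 4, had 2.58 after DSS and 0.51 in water, and so passed the filter only through the DSS-treated mice. *B3gnt7*, which extends keratan sulfate and polylactosamine chains, had a mean of 89.1 after DSS and 163 in water and was lower without overlap in knockout-labelled mice. The list's median log2 difference was 0.05 in controls and 0.20 in knockout-labelled mice.

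Of 16 enzymes of terminal sugars and sulfation measured, 1 was higher and 7 lower in controls, and 1 higher and 9 lower in knockout-labelled mice. The sialyltransferases *St6gal1* (5.76 rescaled TPM after DSS and 34.4 in water), *St3gal1* (2.09 and 8.78) and *St3gal4* (39.6 and 117) were lower in all DSS-treated mice than in all water-treated mice. *Abo*, the transferase of blood group A and B sugars, was also lower (1.17 and 4.14). Leukocytes carry sialyltransferases too, and their markers were lower in the same mice, so the part of these cells in the difference was not tested. The list's median log2 difference was −0.33 in controls and −0.71 in knockout-labelled mice.

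Among 15 genes of nucleotide sugars and their transporters, 5 were higher and 0 lower in controls, and 4 higher and 2 lower in knockout-labelled mice. The Golgi transporters *Slc35a3* for UDP-N-acetylglucosamine (118 rescaled TPM after DSS and 59.6 in water) and *Slc35a1* for CMP-sialic acid (98.1 and 59.8) were higher in all DSS-treated mice. *Slc35a2* for UDP-galactose had 4.65 and 11.7, and *Slc35d1* 2.37 and 0.90, both with overlap.

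Other transmembrane mucins overlapped between treatments in controls for all 5 measured genes, and 2 were higher without overlap in knockout-labelled mice. *Muc3* had a mean of 486 rescaled TPM after DSS and 428 in water, *Cd164* 131 and 94.3, and *Podxl* 3.37 and 3.49. *Muc3a* had 68.6 and 16.7. In controls its means were 62.1 after DSS and 26.8 in water with overlap, and in knockout-labelled mice 73.5 and 8.58 without overlap. Reads may be split between *Muc3a* and *Muc3*, which was not tested. *Muc2*, the only secreted mucin of the list averaging 1 rescaled TPM or more, had 28.9, 33.1 and 129 rescaled TPM in DSS-treated controls and 39.2 or less in DSS-treated knockout-labelled mice, against 68.5 to 200.2 and 94.1 to 174 in water. By genotype limma called 0 of 58 genes of these lists after DSS (1 with an unadjusted p under 0.05) and 0 of 57 in water (3 with an unadjusted p under 0.05). Over all genes it called 1 of 10899 after DSS and 1 of 11046 in water, and 2.65% and 5.28% had an unadjusted p under 0.05.

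**Figure D5:**
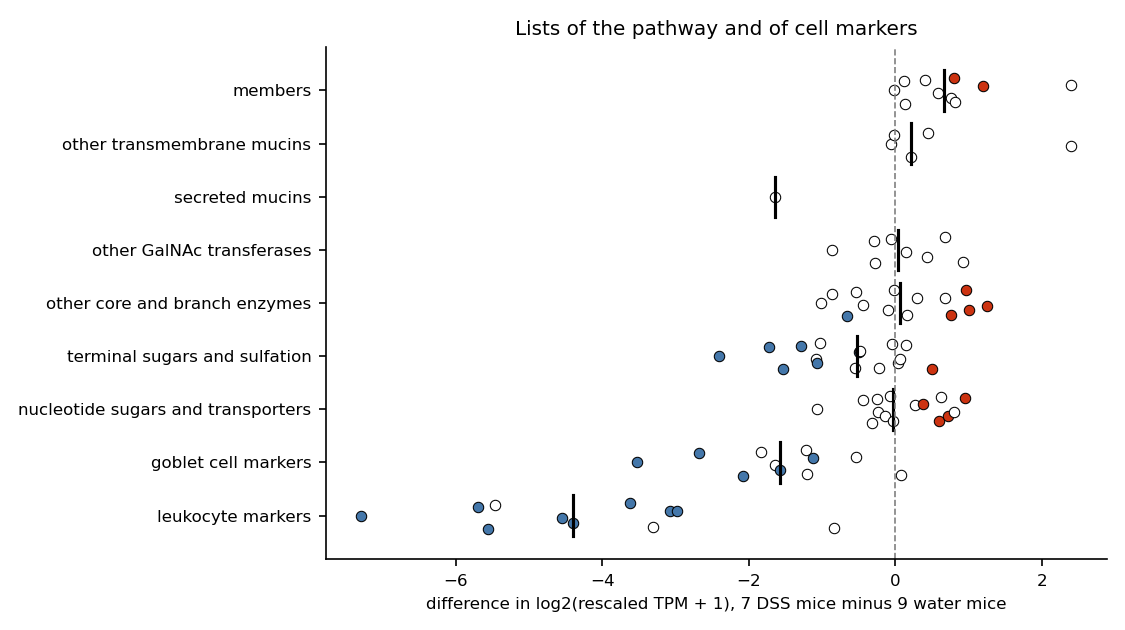
Difference in log2(rescaled TPM + 1) between the 7 DSS-treated and 9 water-treated mice, 1 point per gene with a mean of at least 1 rescaled TPM, for the members, the other lists of the pathway and 2 lists of cell markers. Red points are higher and blue points lower without overlap, and the vertical bars are list medians, 0.67 for the members, −0.52 for terminal sugars and sulfation and −4.41 for leukocyte markers.

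Genes most like each member were sought by Pearson's r of deviations from the group means over the 16 mice, among the 7279 genes averaging 5 TPM or more, as a description. The nearest to *Muc13* was *Jup* (r = 0.964), followed by *Oxa1l* (0.938), and the nearest to *Fut2* were *Bdh1* (0.938) and *Muc13* itself (0.902). *C1galt1* was nearest to *Agps* (0.955) and *Rbbp8* (0.944), and *Muc4* to *Gtpbp10* (0.930) and *Sept7* (0.925). Among the genes like *Gcnt3* was *Fabp2* (0.833), and among those like *B3gnt6* was 5031439G07Rik (0.844). For *Muc1* they were *Plekha7* (0.877) and *E2f2* (0.831), for *C1galt1c1* *Oard1* (0.864) and *Ildr1* (0.853), for *Galnt3* *Klhl2* (0.879) and *Prps1* (0.853), and for *Galnt12* *Arhgap35* (0.893) and *Ube2d1* (0.884). Among members, *Muc4* ran against *Muc13* (r = −0.740) and with *C1galt1* (0.717). All points share the libraries, and DSS control replicate 3 lies far from its group for several of these genes. *Muc4* was at or near 0 in water, so its r rest mostly on the DSS-treated mice. Among those, control replicate 3 had the lowest *Muc4* (1.58e-08 TPM) and *C1galt1* (34.7) and the highest *Muc13* (1073). The r without this mouse were not computed.

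The members map to GRCm38 as follows. *Muc1* spans chromosome 3 from 89229057 to 89233381 on the plus strand, *Muc4* chromosome 16 from 32735886 to 32782391 (plus) and *Muc13* chromosome 16 from 33794037 to 33819934 (plus). *Galnt3* spans chromosome 2 from 66082766 to 66124994 (minus), and *Galnt12* chromosome 4 from 47091909 to 47123070 (plus). *C1galt1* spans chromosome 6 from 7844842 to 7875687 (plus), and its chaperone gene *C1galt1c1* chromosome X from 38630785 to 38635087 (minus). *B3gnt6* lies on chromosome 7 from 98192417 to 98199481 (minus), with *Fut2* on the same chromosome from 45648591 to 45666394 (minus). *Gcnt3* spans chromosome 9 from 70031496 to 70038088 (minus). All are protein-coding, and 9 have 1 listed transcript.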

How the data were processed

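Stranded libraries of polyA RNA were sequenced as single reads. Per the labels the authors quantified them with kallisto and sleuth on mm10, and versions are not given in the labels. They deposited TPM per transcript in a table for each treatment, each scaled between its own mice, with all listed transcripts annotated as principal isoforms in GENCODE M21. Each table had 29373 lines, of which 385 repeats were dropped. TPM were summed by gene symbol. The deposited natural log (ln) column, the authors' mean log estimated count per transcript, was used for depth only. The authors' test statistics, p-values, q-values and ratios were not used. Since TPM hold no read number, library depth cannot be read from the tables, and the labels give only one rough figure for every library. The summed TPM of a mouse were 487469 to 861109, and median-of-ratios factors over all mice 0.905 to 0.940 in water and 1.13 to 1.24 after DSS.

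Groups, cages and sexes were taken from the sample labels, and age from the study's methods. Nothing in the labels pairs mice, and mice of a group are separate animals. Genotypes were compared within a treatment with limma (version 3.58.1, under R 4.3.3) applied to log2(TPM + 1), a scale that understates changes of low genes, for those averaging 1 TPM or more, and single genes by exact two-sided permutation. In simulated data, with 200 genes shifted, limma found 48.0% of shifts of 1 (log2) after DSS and 53.5% in water, and 85.5% and 86.5% of shifts of 2. For genotype by treatment it found 32% of shifts of 1 and 78.5% of shifts of 2. The shifted genes averaged 5 TPM or more, so these shares do not cover *Muc1* and *B3gnt6*. With 200 genes shifted, the adjustment is also more lenient than where few genes differ. Alternatives were a pseudocount of 0.1, no filter or a minimum of 5 TPM, other scalings, cage as covariate, the replicate number as block, all groups in one fit and each mouse left out. Restriction to female mice was added after seeing the data. Named genes were the 10 members, up to 4 genes per list with the largest difference between treatments, *Tnfrsf1b*, *Muc2* and the 2 genes most like each member, of which one is not reported here. The members and lists were chosen with earlier results of these data known. Tables and figures were made with pandas 2.3.3, numpy 2.4.6 and matplotlib 3.10.9 under Python 3.11.15.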

Additional observations from a re-analysis of the deposited data

Results flagged for a closer look

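In groups of 4 or 5 mice, a mouse was marked where its gap to the nearest other mouse was a large part of the range of the group (Dixon's 95% limit). Of 30 groups tested, 5 had such a mouse, and chance marks about 1 group in 20. *Muc4* was marked in 3 groups: DSS-treated knockout-labelled replicate 2 had 10.5 TPM against 4.10 to 4.28 in the other 3, water-treated knockout-labelled replicate 5 had 0.240 TPM against 0.000736 or less in the others, and water-treated control replicate 3 had 0.00296 TPM against 0.000489 or less. The last 2 are values next to 0, where the estimate rests on few reads. *C1galt1c1* in DSS-treated knockout-labelled replicate 2 was 42.1 TPM against 34.8 to 35.9 in the other 3. *B3gnt6* in water-treated knockout-labelled replicate 5 was 3.12 TPM against 0.201 to 0.999 in the others.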

How the results depend on the processing

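Member counts between treatments kept their direction in every alternative, with 0 members lower. Of 10 members, 7 were higher in controls with TPM as deposited and 7 by percentile rank, and 4 to 7 with single mice left out (7 without DSS control replicate 3). In knockout-labelled mice 7 were higher with TPM as deposited and 7 with the same sum over listed transcripts, and 4 to 5 with each mouse left out. Of these alternatives, the share of all genes was counted only by percentile rank (19.0% higher in controls) and without DSS control replicate 3 (24.8%). The other counts have no background beside them. Genes called by genotype after DSS were 0 with a pseudocount of 0.1 (277 with an unadjusted p under 0.05), 0 without a filter (545) and 0 with the replicate number as a block (169), and 0 to 3 with each mouse left out, 3 without control replicate 1, 2 without control replicate 3, and 0 without control replicate 2 or knockout-labelled replicate 1, 2 or 3 (205 to 591 with an unadjusted p under 0.05). In water they were 0 with a pseudocount of 0.1 (558), 4 without a filter, 0 with a minimum of 5 TPM (373), 2 with quantile normalization, 0 with the replicate block (623), 3 with all 4 groups in one fit, and 1 to 2 with each mouse left out, 2 without control replicate 1 or 3 or knockout-labelled replicate 1. For genotype by treatment they were 0 with a minimum of 5 TPM (322), 2 with median-of-ratios rescaling, and 1 to 3 with each mouse left out, 3 without water-treated knockout-labelled replicate 5 and 2 without DSS-treated control replicate 1 or knockout-labelled replicate 4. The cause of these changes was not tested. Mice that carry the same replicate number are distinct animals. Deviations of such mice had r of −0.197 to −0.0253 after DSS and −0.0769 to 0.0932 in water, so the numbers were not taken as pairs.

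No member was called by genotype under any alternative. Signs of small genotype effects turned. After DSS, *Muc4* was −0.056 with cage as covariate, *Muc13* 0.0075 with epithelial marker rescaling and 0.0087 with cage, and *Fut2* −0.027 with the replicate block. In water *Muc13* was −0.21 with quantile normalization. For genotype by treatment *Muc4* was −0.037 with median-of-ratios rescaling, −0.064 with epithelial marker rescaling and −0.11 with cage, and *Muc13* 0.21 with quantile normalization. With each mouse left out, effects after DSS ranged from −0.40 to 0.11 for *Muc1*, −1.16 to 0.80 for *Muc4*, −0.15 to 0.18 for *Muc13*, −0.19 to 0.21 for *C1galt1*, −0.16 to 0.36 for *B3gnt6*, −0.13 to 0.34 for *Gcnt3*, −0.052 to 0.18 for *Galnt3*, −0.14 to 0.031 for *Galnt12* and −0.12 to 0.29 for *Fut2*. In water they ranged from −0.15 to 0.012 for *C1galt1*, −0.15 to 0.038 for *Galnt3* and −0.34 to 0.016 for *Galnt12*. For genotype by treatment they ranged from −0.032 to 0.48 for *Muc1*, −1.22 to 0.74 for *Muc4*, −0.28 to 0.054 for *Muc13*, −0.11 to 0.29 for *C1galt1* and −0.085 to 0.27 for *Galnt12*. Depth limits *Muc1* and *B3gnt6* most, and isoforms limit *Muc4*, *Galnt12* and the second *Muc13* transcript.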
